A study of Homo sapiens with 7 samples.

Results

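Cilia-related genes known from renal cystic disease or from ciliary motility were examined in ACHN cells, a human renal cell adenocarcinoma line, with and without overexpression of the long non-coding RNA HOTAIR. The set held 47 genes, measured by the 67 non-control probes that carry their names, of 34809 gene names and 42405 probes on the array. A probe is called detected here on an array where the scanner software marked it as well above background. Of the 47 genes, 32 (38 probes) were detected on all arrays of either group or of both and could be tested. CYS1 and DNAH10 were selected on their difference between ACHN-HOTAIR and ACHN-EV cells in these same arrays, so their values are a description without a test. All others were chosen by their role in the cilium.

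The cells of both groups carried a pBabe-hygro retrovirus, either as an empty vector (ACHN-EV, 4 samples) or with the HOTAIR cDNA (ACHN-HOTAIR, 3 samples), and all had been selected with hygromycin. Neither the labels nor the methods say whether the samples of a group came from separate transductions or cultures, or whether the cells were a pool or a clone. The p-values therefore measure only the spread between these samples. Total RNA of each sample was labelled with Cy3 and hybridised to 1 single-colour Agilent SurePrint G3 Human GE array, and each group filled its own row of a single slide. An effect of the row and one of HOTAIR cannot be told apart. Values are the log2 of a probe's processed intensity minus the 75th percentile of its array, called the level below, and a difference is ACHN-HOTAIR minus ACHN-EV. In extracts of whole cultures, fewer cells that express a gene and less RNA per cell cannot be told apart.

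The primary cilium is a microtubule-based antenna that stands on a basal body, and most cells of the renal tubule bear one. Intraflagellar transport (IFT) trains, moved by kinesin-2, build it, the transition zone gates its base, and the BBSome carries membrane proteins out of it. Inherited defects of these parts, or of the polycystins in the ciliary membrane, cause cystic kidney disease. Axonemal dyneins are the motors of motile cilia and sperm tails, which the renal tubule normally lacks. RFX factors bind an element called the X-box in promoters of many ciliary genes, and FOXJ1 drives the program of motile cilia.

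The 75th percentile of intensity lay between 522.5 and 649.1 on the ACHN-EV arrays and between 552.0 and 640.2 on the ACHN-HOTAIR arrays, and 48.7 to 52.2% of the probes were detected. The probe for HOTAIR itself was detected on no ACHN-EV array, with levels from -7.07 to -6.29, and had levels from -3.24 to -2.58 on the ACHN-HOTAIR arrays. In a principal component analysis of all tested probes EV 2 stood apart from its group on the first component (74.0 against -18.1 to -8.50), and HOTAIR 3 from the other ACHN-HOTAIR arrays (21.1 against -29.4 and -21.3). In the 30 tested member genes other than CYS1 and DNAH10, EV 2 was the ACHN-EV array farthest from its group's median in 15 genes, and HOTAIR 3 the farthest of its group in 13. Of 14 renal epithelial and renal carcinoma markers, 11 were detected on every array, among them PAX8, PAX2, KRT8, KRT18 and EPCAM. The array annotation puts the KRT8 probes on chromosomes 8 and 1 and the KRT18 probes on chromosomes 4 and Y. The transcripts that these keratin probes read are therefore uncertain. CA9, ANPEP and CUBN were detected on none.

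CYS1 and DNAH10 were each read by a probe near the 3′ end of their transcript, and DNAH10 also by a probe in mid-transcript. The first 30 bases of these 60-base probes are shown, since the values of the pair rest on them.
CYS1, chr2:10196972-10197031 (hg19, minus strand): ttcctgaattcaggaagtgtcttctgaata
DNAH10, 3′ end, chr12:124419946-124420005 (hg19, plus strand): tttttgaagctgatctctttaccacgaggc
DNAH10, mid-transcript, chr12:124343704-124343763 (hg19, plus strand): aagtggttcaaatgttcgagaccatgttaa
The CYS1 probe starts at base 2613 of its transcript, and the DNAH10 probes at bases 13358 and 6308 of theirs.

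CYS1, the gene for cystin, was lower in the ACHN-HOTAIR cells. Cystin is a lipid-anchored protein of the ciliary membrane whose loss causes polycystic kidneys in the mouse. Its level was -2.68, -2.83, -3.08 and -2.97 on EV 1 to EV 4 and -4.19, -3.99 and -3.89 on HOTAIR 1 to HOTAIR 3. All ACHN-HOTAIR arrays lay below all ACHN-EV arrays, and the probe was detected on all 7. The means were -2.89 ± 0.17 (SD, n = 4) and -4.02 ± 0.15 (SD, n = 3), a difference of -1.13 (SE 0.14), or 2.19-fold lower. This difference, on which the gene was selected, was the 11th lowest of the 20419 tested probes. With normexp background correction, whose offset of 50 raises dim signals, it was -0.58.

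DNAH10, an inner-arm axonemal dynein heavy chain, was higher in the ACHN-HOTAIR cells at its 3′ probe. The level was -7.66, -7.47, -7.59 and -7.10 on the ACHN-EV arrays, none of which detected the probe. On the ACHN-HOTAIR arrays it was -4.42, -4.98 and -5.29, with the probe detected on all 3, and the groups did not overlap. The means were -7.46 ± 0.25 (SD, n = 4) and -4.90 ± 0.44 (SD, n = 3), and these measured means differ by 2.56. No ACHN-EV array detected the probe, so the fold is not measured. A reference for each ACHN-EV array was the higher of the probe's own signal and the lowest signal of any probe detected there. Against the mean of this reference, the ACHN-HOTAIR mean was 3.13-fold higher. This is no strict minimum, since the undetected probe of IFT57 reached -5.39 on EV 2. With normexp the difference was 0.36.

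The mid-transcript probe of DNAH10 did not show this. It was detected on no array, with levels of -7.02 ± 0.49 (SD, n = 4) in ACHN-EV and -7.25 ± 0.23 (SD, n = 3) in ACHN-HOTAIR cells. A further probe, named only by an Ensembl transcript (ENST00000339192) and annotated upstream at chr12:124298149-124298208 (hg19, plus strand), was detected on no array either. It was added after its values were seen. The DNAH10 difference therefore rests on 1 of these 3 probes, the one nearest the 3′ end.

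**Figure D1:**
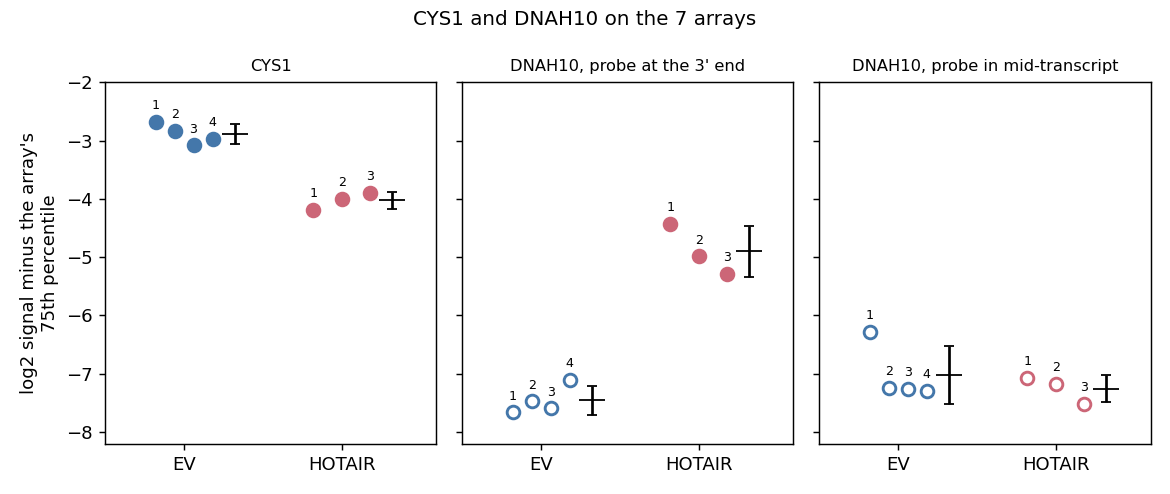
Level of the CYS1 probe and of both DNAH10 probes (log2 signal minus the array's 75th percentile) on the 4 EV and 3 HOTAIR arrays, each point an array with its number, and the bar the mean ± SD. Open circles mark groups in which the probe was not detected on every array, and only CYS1 and the 3′ probe of DNAH10 separate the groups.

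No tested gene that flanks CYS1 or DNAH10 passed the test. The 3 nearest genes on each side in the RefSeq table (GRCh38.p14), passing over symbols that start with LOC, make 12 neighbours. Of these, 6 have no probe under their name on the array and 5 were tested. None of their 6 probes passed an adjusted p of 0.05 in limma, and none had an unadjusted p under 0.05. Near CYS1, GRHL1 differed by 0.20 (adjusted p = 0.992) and the transcription factor gene KLF11 by 0.078 (adjusted p = 0.993). RRM2, a subunit of ribonucleotide reductase, differed by -0.19 (adjusted p = 0.972). A probe that the array names C2orf48, a name the gene table now lists under RRM2, differed by 0.34 (adjusted p = 0.986). It was detected on 3 ACHN-EV and all 3 ACHN-HOTAIR arrays. It entered the test only through the group where it was higher, so its p-value is description only. Beside DNAH10, CCDC92 differed by 0.012 (adjusted p = 0.998) and the zinc finger gene ZNF664 by -0.020 (adjusted p = 0.996).

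Among the other members, limma called 0 of the 36 tested probes at an adjusted p of 0.05, against 0.167% of all 20419 tested probes. An unadjusted p under 0.05 was found for 1 of the 36, a probe of CC2D2A. By the brightest probe of each gene, 12 of the 30 genes had a higher mean in ACHN-HOTAIR cells and 18 a lower one, with differences from -0.32 to 0.43 and adjusted p-values from 0.865 to 0.998. Their median difference was -0.043, beside 0.013 over all tested probes, of which 52.8% were higher. The ACHN-HOTAIR arrays lay apart from the ACHN-EV arrays for 4 of the 36 probes, all of them lower, against 7.70% of all tested probes. These were probes of CEP290, CC2D2A, IFT52 and IFT88. The plot of differences by role gives the 95% interval of each gene.

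**Figure D2:**
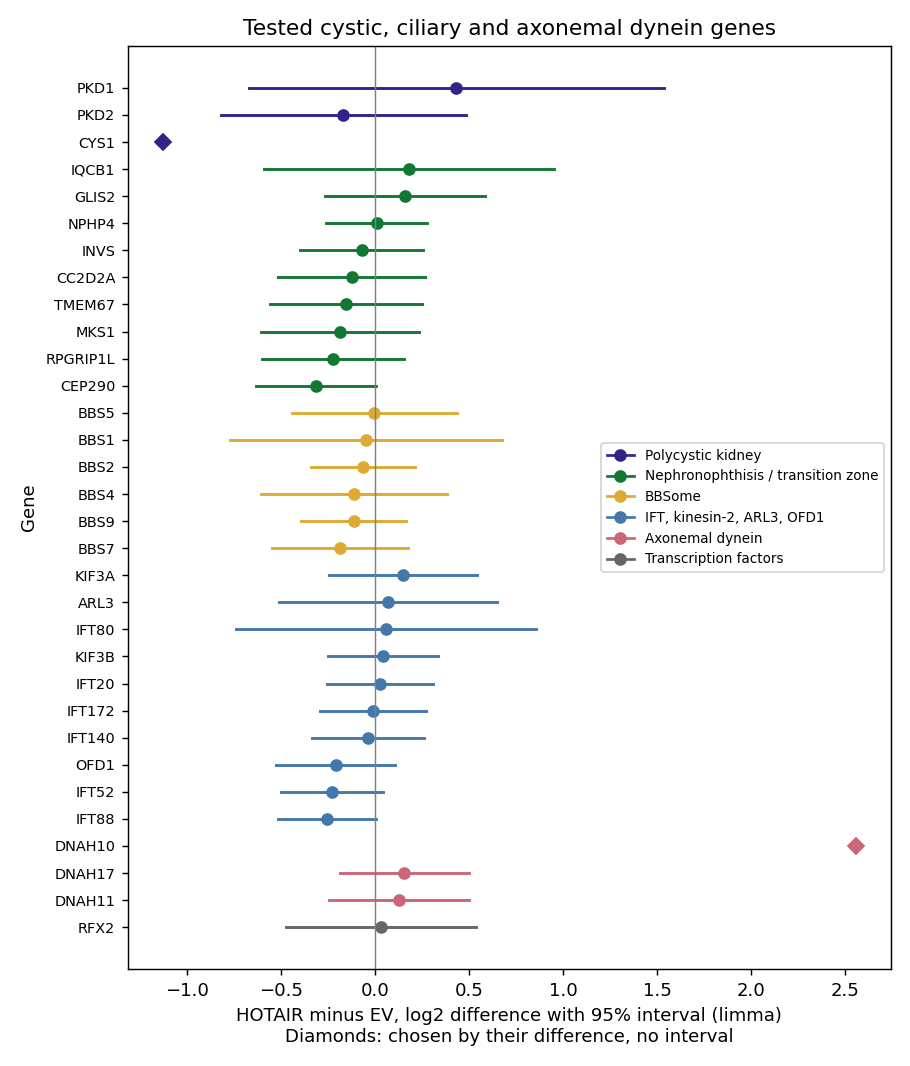
Difference between HOTAIR and EV (log2) for the brightest probe of each of the 32 tested genes, coloured by role, with the limma 95% interval as a line. CYS1 (-1.13) and DNAH10 (2.56) are diamonds without an interval, and the other 30 genes lie between -0.32 and 0.43 with intervals that all include 0.

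The polycystic kidney genes other than CYS1 gave no call. PKD1 encodes polycystin-1, a large receptor-like membrane protein, and has near-identical pseudogene copies, so that its probe values are uncertain. Its brightest probe had levels of 2.69, 0.94, 1.92 and 2.87 on EV 1 to EV 4 and of 3.07, 2.46 and 2.09 on HOTAIR 1 to HOTAIR 3. EV 2 was the lowest array, the groups overlapped, and the difference was 0.43 (95% interval -0.67 to 1.54, adjusted p = 0.993). It was 0.043 without EV 2, 0.16 without HOTAIR 1 and 0.68 without EV 4. The PKD1 probe at the 3′ end differed by 0.075 (95% interval -0.18 to 0.33, adjusted p = 0.993).

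PKD2 encodes polycystin-2, the cation channel that pairs with polycystin-1. Its level was 1.02, 1.84, 0.94 and 0.81 on the ACHN-EV arrays and 0.74, 0.81 and 1.40 on the ACHN-HOTAIR arrays. EV 2 and HOTAIR 3 were the highest of their groups, which overlapped, and the difference was -0.17 (adjusted p = 0.993). Without EV 2 it was 0.058. PKHD1, whose product fibrocystin is lost in recessive polycystic kidney disease, was detected on no array with any of its 3 probes. Its brightest probe had levels of -6.58, -6.54, -6.98 and -6.25 on the ACHN-EV arrays and of -6.95, -6.08 and -5.76 on the ACHN-HOTAIR arrays, which overlapped.

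Of the 10 nephronophthisis and transition zone genes, 9 were tested, of which 3 were higher and 6 lower, and none passed the test. CEP290, which tethers the transition zone to the ciliary membrane, had the largest negative difference of the 30 genes by their brightest probes. Its level was 0.18, 0.38, 0.46 and 0.15 on the ACHN-EV arrays and -0.22, 0.13 and 0.03 on the ACHN-HOTAIR arrays. The groups did not overlap, although EV 4 and HOTAIR 2 lay close together, and the difference of -0.32 (SE 0.14) had an adjusted p of 0.865.

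IQCB1, also called nephrocystin-5, a binding partner of CEP290, had the largest positive difference of this group. Its level was -0.10, 0.20, 0.04 and -1.17 on EV 1 to EV 4 and -0.40, 0.03 and 0.14 on the ACHN-HOTAIR arrays. EV 4 was far below the rest, and the difference of 0.18 (adjusted p = 0.993) became -0.12 without it. The array annotation puts this probe on chromosome 6 whereas the gene table has the gene on chromosome 3, so the transcript it reads is uncertain.

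CC2D2A, a transition zone protein of the Meckel and Joubert syndromes, had 3 tested probes, with differences of -0.13, -0.17 and -0.35 (adjusted p = 0.993, 0.993 and 0.846). The probes of INVS, the gene for inversin, disagreed in sign, at -0.072 and 0.17 (adjusted p = 0.993 for both). The remaining tested genes differed by -0.22 (RPGRIP1L, a transition zone scaffold), -0.19 (MKS1, a Meckel syndrome protein), -0.16 (TMEM67, the transition zone membrane protein meckelin), 0.16 (GLIS2, a zinc finger transcription factor) and 0.0079 (NPHP4, nephrocystin-4). MKS1 had a second, untested probe with a difference of 0.093, and NPHP4 had one, detected on no array, with -0.42. NEK8, a kinase of the ciliary base region, was detected on 1 array and was not tested.

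The set holds 6 genes of the BBSome, a coat-like complex for ciliary membrane cargo, which were all tested, with differences from -0.19 to -0.0055, and none passed the test. TTC8, a further subunit that is no member, differed by -0.14 (adjusted p = 0.993). BBS7 had the largest difference of the 6. Its level was -3.26, -2.69, -3.10 and -3.22 on the ACHN-EV arrays and -3.31, -3.19 and -3.27 on the ACHN-HOTAIR arrays. EV 2 stood above the others, the groups overlapped, and the difference was -0.19 (adjusted p = 0.993). It was -0.062 without EV 2. BBS5 was the one gene of the complex with probes of opposite sign. Its brighter probe, at -0.0055 (adjusted p = 0.998), is annotated on chromosome 6 although the gene lies on chromosome 2, and its probe on chromosome 2 differed by 0.042 (adjusted p = 0.993).

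Of the 11 genes of IFT, kinesin-2, ARL3 and OFD1, 10 were tested, of which 5 were higher and 5 lower, and none passed the test. KIF3A, a motor subunit of kinesin-2, had the largest positive difference. Its level was -0.65, -1.11, -0.43 and -0.66 on the ACHN-EV arrays and -0.54, -0.50 and -0.67 on the ACHN-HOTAIR arrays. EV 2 was the lowest array and the groups overlapped, with a difference of 0.15 (adjusted p = 0.993). It was 0.013 without EV 2 and 0.035 with normexp. The partner subunit KIF3B differed by 0.041 (adjusted p = 0.993).

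IFT88, a core subunit of the IFT-B train whose loss causes cysts in the mouse kidney, had the largest negative difference. Its level was -2.23, -1.93, -2.18 and -2.13 on the ACHN-EV arrays and -2.43, -2.37 and -2.32 on the ACHN-HOTAIR arrays. The groups did not overlap, and the difference was -0.26 (SE 0.11, adjusted p = 0.869). IFT52, a neighbour of IFT88 in the IFT-B core, also had groups that did not overlap, with levels of 1.07 to 1.37 in ACHN-EV and 0.98 to 1.04 in ACHN-HOTAIR cells and a difference of -0.23 (adjusted p = 0.926). The other IFT genes tested, IFT20, IFT80, IFT140 and IFT172, differed by -0.038 to 0.059, and IFT57 was detected on no array. OFD1, a centriolar protein at the base of the cilium, differed by -0.21 (adjusted p = 0.952) and by -0.13 (adjusted p = 0.993) at its other probe.

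ARL3 is the small GTPase that releases lipid-anchored proteins, cystin among them, from their carriers inside the cilium. Its level was -2.12, -1.41, -2.08 and -2.42 on EV 1 to EV 4 and -2.04, -2.15 and -1.62 on HOTAIR 1 to HOTAIR 3. EV 2 and HOTAIR 3 were the highest of their groups, which overlapped, and the difference was 0.069 (95% interval -0.51 to 0.65, adjusted p = 0.993). It was -0.069 without EV 4 and -0.091 without HOTAIR 3. The carriers UNC119 and UNC119B, which are no members, differed by 0.35 and by -0.0026 (adjusted p = 0.993 and 0.999).

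Most axonemal dynein genes were not detected in these cells. Of the 13 genes, 8 were detected on no array. These were the inner-arm heavy chains DNAH1, DNAH2 and DNAH7, the outer-arm heavy chains DNAH8 and DNAH9, the outer-arm intermediate chains DNAI1 and DNAI2, and the inner-arm light intermediate chain DNALI1. For DNAH2 the ACHN-HOTAIR arrays (-7.16 to -6.81) lay above the ACHN-EV arrays (-7.55 to -7.29), but none was detected, so that no fold can be given.

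DNAH11 and DNAH17, both outer-arm heavy chains, were detected on all 7 arrays. DNAH17 had the largest positive difference of the tested dyneins after DNAH10. Its level was -4.27, -4.46, -4.28 and -4.42 on the ACHN-EV arrays and -3.90, -4.27 and -4.43 on the ACHN-HOTAIR arrays, which overlapped, with a difference of 0.16 (adjusted p = 0.993). It was 0.0048 without HOTAIR 1, 0.011 with normexp and 0.012 with quantile normalization. This probe was designed on a cDNA clone, and both DNAH17 probes designed on the reference transcript were detected on no array. DNAH11 differed by 0.13 (95% interval -0.24 to 0.50, adjusted p = 0.993). Its probe, chr7:21940916-21940975 (hg19, plus strand), lies beside a probe of the convergent gene CDCA7L, chr7:21940832-21940891 on the minus strand, which differed by 0.012 (adjusted p = 0.996). Whether the DNAH11 probe reads CDCA7L transcripts was not tested.

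Isolated arrays gave DNAH3 and DNAH5 a signal. DNAH3, an inner-arm heavy chain, had a level of -1.90 on HOTAIR 2 and of -7.59 to -6.52 on the other arrays used. On EV 2 its only spot had been marked as an outlier by the scanner software and was left out. Its level there would have been 4.52. The brighter probe of DNAH5, an outer-arm heavy chain, was detected on 1 array of each group, with levels of -5.71 to -4.82 in ACHN-EV and of -6.49, -5.15 and -3.97 in ACHN-HOTAIR cells. The groups overlapped for both genes, and neither was tested.

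Of the 3 transcription factors that act on ciliary genes only RFX2 was tested, and it gave no call. FOXJ1 was detected on no array, with levels of -7.62, -7.38, -7.26 and -6.64 on the ACHN-EV arrays and -7.41, -7.30 and -6.50 on the ACHN-HOTAIR arrays. RFX2 had levels of -2.70, -2.33, -3.27 and -2.71 on the ACHN-EV arrays and -2.85, -2.78 and -2.55 on the ACHN-HOTAIR arrays. The RFX2 groups overlapped, and the difference was 0.028 (95% interval -0.48 to 0.53, adjusted p = 0.996), which became -0.15 without EV 3 and -0.061 without HOTAIR 3. The brighter RFX3 probe was detected on 1 array of each group, with levels of -5.19, -5.27, -4.73 and -5.08 in ACHN-EV and -4.83, -5.05 and -5.23 in ACHN-HOTAIR cells, which overlapped.

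**Figure D3:**
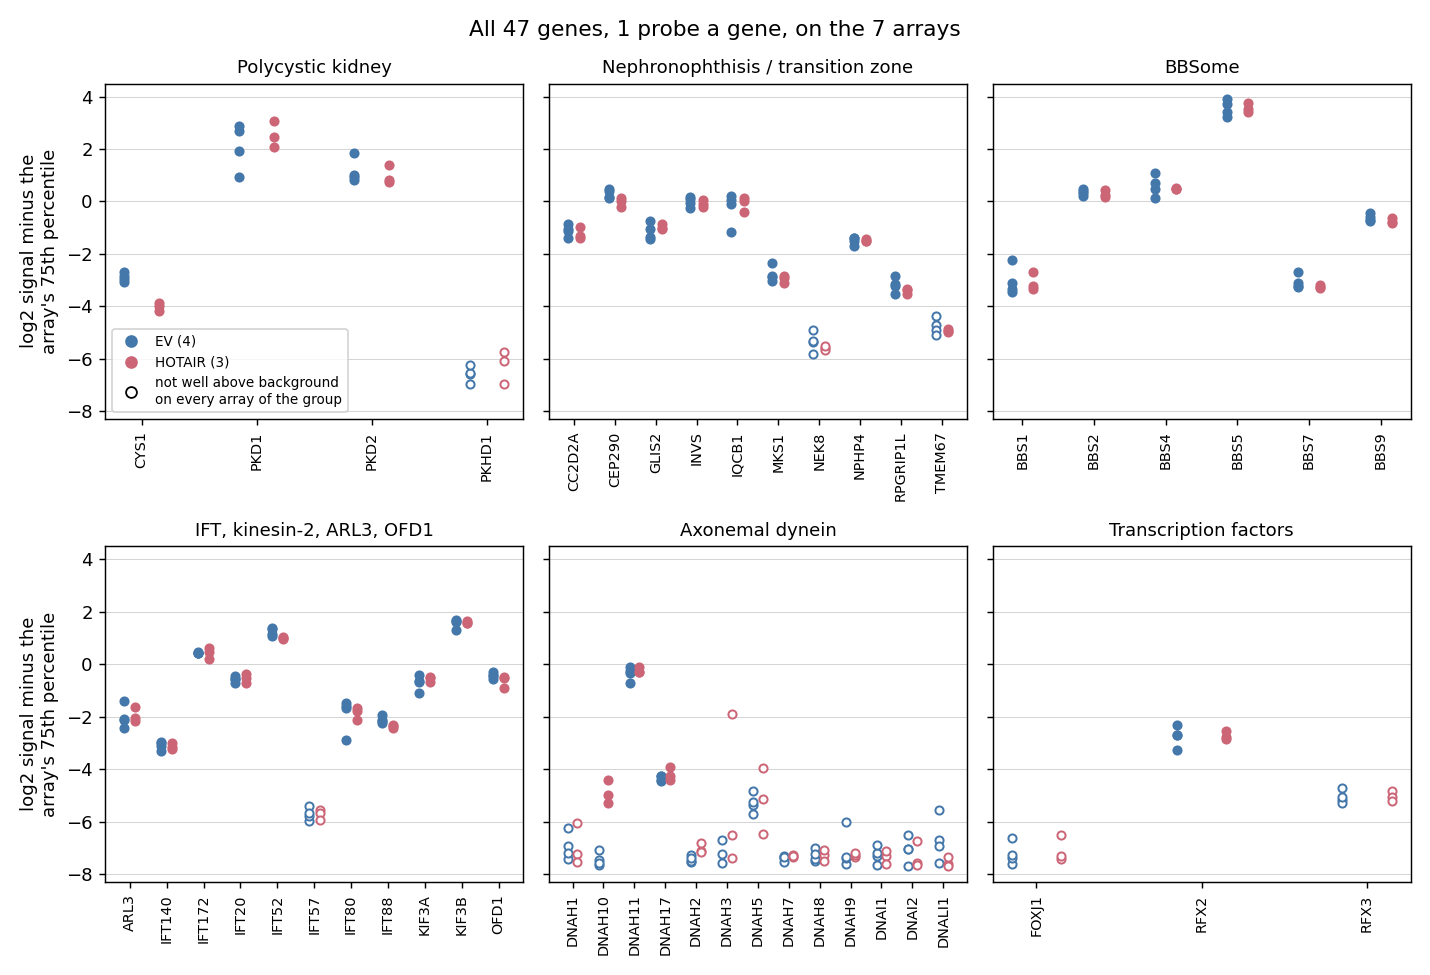
Level of the brightest probe of each of the 47 genes (log2 signal minus the array's 75th percentile) on the 4 EV and 3 HOTAIR arrays, by role, genes in alphabetical order. Filled circles mark groups in which the probe was detected on every array, and most axonemal dynein genes are drawn with open circles between about -8 and -5.

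The wider ciliary gene list was read in the same fit. It was written with results of these data already known. Of 67 further genes of the primary cilium, 62 were tested with 79 probes, of which 29 were higher and 50 lower, and limma called 0 of them (4 with an unadjusted p under 0.05). Over all tested probes of the array, 52.8% were higher and limma called 0.167%. The median difference of the 79 probes was -0.058, and their lowest adjusted p was 0.435, for a probe of ALMS1, a basal body protein. Its level was -4.92 to -4.53 in ACHN-EV and -5.63 to -5.19 in ACHN-HOTAIR cells, detected on all 4 arrays of the first group and on none of the second. The brighter ALMS1 probe was detected on all 7 arrays and differed by -0.20 (adjusted p = 0.947). Of 48 further genes of motile cilia, 25 were tested with 32 probes, 15 higher and 17 lower, with 0 calls and 2 unadjusted p-values under 0.05. The largest of these differences was that of DNAH12, another inner-arm dynein heavy chain. Its level was -4.75, -5.37, -5.59 and -4.87 on the ACHN-EV arrays and -4.12, -3.85 and -4.03 on the ACHN-HOTAIR arrays, a difference of 1.14 (adjusted p = 0.174). The groups did not overlap, and the probe was detected on 2 ACHN-EV and all 3 ACHN-HOTAIR arrays. It was tested only because the ACHN-HOTAIR group passed the filter, and the dim ALMS1 probe only because the ACHN-EV group did. Entry through the higher group favours a difference, so the p-values and the separation of these probes are description only. The other 4 DNAH12 probes were detected on no array, with differences of -0.087, -0.0035, 0.22 and 0.025.

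Markers of multiciliated cells were in part detected. Of 10 with a probe, 6 were detected on no array, among them FOXJ1, TEKT1, HYDIN, SNTN and SPAG6. CCNO and TPPP3 were detected on all 7 arrays, and RSPH1 and CAPS on some or all arrays of a group. The 4 tested probes of this list gave 0 calls, with differences from -0.14 to 0.25. Both ends of this range are RSPH1 probes. Each entered the test only through the group where it was higher, so their values are description only. Of the immune list CD3E was detected on no array, the brightest PTPRC probe on 2 ACHN-EV arrays and 1 ACHN-HOTAIR array, and CD14 on all 7. Of the fibroblast list COL1A1, DCN, LUM and PDGFRB were detected on no array and ACTA2 on all 7. Of the endothelial list VWF was detected on no array, PECAM1 on 1 ACHN-EV array, and CDH5 on 3 ACHN-EV arrays and 1 ACHN-HOTAIR array.

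The promoters of the members were searched for an X-box-like motif, a measure that the choice of genes did not use. The motif was written as GTNNCC, then 0 to 3 bases, then NGNAAC, where N is any base, and was sought on both strands of the 300 bases from 250 before to 50 after each start site (RefSeq promoters of GRCh38.p14). Of the 47 members, 39 matched a promoter of this table by symbol. The entries missing were CYS1, GLIS2, TMEM67, BBS9, DNAH17, DNAH3, FOXJ1 and RFX2. The windows of the following dynein promoters are shown because the matches lie almost wholly in that group, each written 5′ to 3′ on the strand of the gene with the match in capitals.
DNAH1, chr3:52316202-52316239: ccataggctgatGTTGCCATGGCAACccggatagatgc
DNAH2, chr17:7717714-7717751: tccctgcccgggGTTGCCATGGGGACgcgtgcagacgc
DNAH9, chr17:11598316-11598352: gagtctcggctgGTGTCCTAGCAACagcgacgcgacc
DNAH11, chr7:21542999-21543036: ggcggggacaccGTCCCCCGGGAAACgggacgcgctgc
DNALI1, chr1:37556911-37556948: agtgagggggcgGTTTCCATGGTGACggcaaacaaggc
These 5 genes lie on the plus strand, and the first bases of the matches lie at -105, -18, -142, -28 and -17 from their start sites. The DNAH1 match shown reads as the motif on both strands, and this promoter holds another match from -173 to -161 on the strand opposite to the gene. Of the others shown, those in DNAH9 and DNAH11 read on the strand of the gene and those in DNAH2 and DNALI1 on the other.

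A match was found in 8 of the 39 member genes (20.5%), against 1661 of all 27305 genes with a promoter in the table (6.08%). Among the axonemal dynein genes it was 7 of 11 (63.6%), namely DNAH1, DNAH2, DNAH9, DNAH11, DNAI1, DNAI2 and DNALI1. DNAH10 had no match in either of its 2 listed promoters, nor had DNAH5, DNAH7 and DNAH8. Among the other 28 members only IFT57 had a match. The share over all genes whose promoter lay within the middle GC range of the members (59.5 to 67.7%) was 7.62%. Of the 7 matching dynein genes, only DNALI1 (60.3%) lay in this range. The others lay outside it, from 52.0% in DNAH9 to 71.3% in DNAH2, so this share does not match their GC content.

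The matches ran with the genes that were dim in these cells. Of the 10 members with a promoter that were detected on no array, 7 had a match, and of the 26 tested members with a promoter, 1 did, DNAH11. Since 6 of the matching dynein genes are in the first of these groups, role and detection cannot be told apart here. The counts are a description of letters in a window and carry no test.

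**Figure D4:**
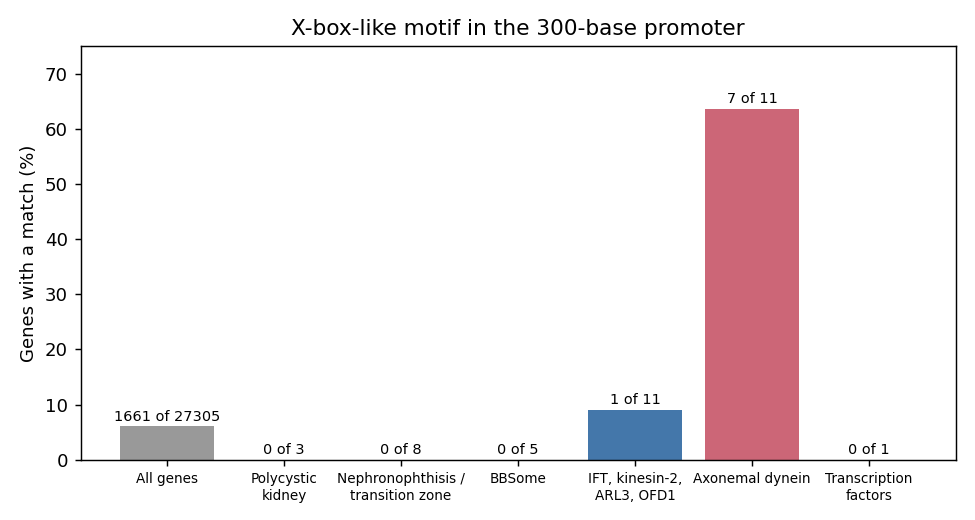
Share of genes with an X-box-like motif in the 300-base promoter (%), over all 27305 genes with a promoter and over the members of each role, with the counts above the bars. The axonemal dynein genes stand at 63.6%, all genes at 6.08%, and 4 of the other 5 roles at 0.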

How the data were processed

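The authors extracted each array with Agilent Feature Extraction (10.7.3.1, from the submitters' processing notes) and deposited processed intensities with the background subtracted and detection and outlier calls. From these the log2 was taken, each array's 75th percentile over non-control spots was subtracted, outlier spots were left out and spots of a probe were averaged. Of 42405 probes, 14 with missing values were dropped (the DNAH3 probe among them, described on the arrays that have it), and the 20419 that the software's call put well above background throughout either group or both were compared between groups with lmFit and eBayes of limma 3.58.1 in R 4.3.3, two-sided, with Benjamini-Hochberg adjustment over all of them at 0.05. The test was tested on simulated data with independent noise and planted changes. These arrays share deviations, so the simulation does not measure the error rates of the test here. The deposited value table held the same intensities within 0.498%, on a linear scale and not scaled between arrays. Probe positions are on hg19, and accessions of 24826 probes matched the GRCh38.p14 gene table. The study chose its array genes with the rank product algorithm, which was not used here. Its Mann-Whitney U test, named for the in vitro and in vivo data, was not used either. With 3 against 4 arrays that test cannot go below an exact two-sided p of 0.0571.

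Members, gene lists, tests and the rule for named genes were chosen with earlier results of these data known. Values on every array are given for CYS1, DNAH10, ARL3, PKD1, PKD2, PKHD1, FOXJ1, RFX2 and RFX3, for the tested gene with the largest positive and negative difference of each role, and for any member called. The brightest probe represents a gene, and other tested probes are given where their sign differs. For PKHD1, DNAH5, DNAI2 and RFX3, differences of opposite sign at probes detected on no array are not given. DNAH12, ALMS1, IFT52, DNAH2, DNAH3 and DNAH5 were named after their values were seen. Alternatives were another background correction, other scalings and filters, the deposited table, moderated trend, the replicate block and each array left out.

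The labels number the samples of both groups, and same-numbered samples did not deviate together (correlations of 0.39, -0.37 and -0.41, beside 0.62 for EV 2 with HOTAIR 3), so the numbers were not treated as pairs. The small number of arrays limits the precision.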

Additional observations from a re-analysis of the deposited data

Results flagged for a closer look

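IFT80, a subunit of the IFT-B train, had 1 array far from the rest of its group. Its level was -1.59, -1.49 and -1.68 on EV 1 to EV 3 and -2.90 on EV 4, a gap of 0.868 of the group's range, above Dixon's critical value for 4 samples. On the ACHN-HOTAIR arrays it was -2.12, -1.79 and -1.66, and limma gave a difference of 0.059 (adjusted p = 0.995). Of 46 member genes with 4 ACHN-EV values, this was the 1 past it, and chance flags about 1 in 20 groups, or 2.3 of 46.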

How the results depend on the processing

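The counts of 0 calls among the members, the other ciliary genes and the neighbours of CYS1 and DNAH10 held in all 16 alternatives, of which the one leaving out EV 2 and HOTAIR 3 together was chosen after seeing the data. CYS1 stayed lower and DNAH10 higher in each alternative that measured them (16 and 15, since the filter for detection on all arrays drops DNAH10), but both moved with normexp, to -0.58 and 0.36. Without 1 array they ranged from -1.20 to -1.05 and from 2.32 to 2.75. The median difference of the 30 genes ran from -0.11 to 5.1e-04. Calls among all probes fell from 34 to 12 with normexp, 14 with no filter on dim probes, 20 with trend and robust moderation, 14 without EV 2 and HOTAIR 3, and 9 to 31 without 1 array (9 without EV 1, 31 without EV 2). With the replicate block, for numbers that do not pair the samples, there were 0 calls of any probe, ARL3 turned to -0.069 and IQCB1 to -0.12. The differences with the block are the same as those without EV 4, which has no same-numbered ACHN-HOTAIR array. Its sign changes are therefore not separate from the ones without EV 4. Small differences, none of them called, changed sign elsewhere. RFX2 was -0.035 with quantile normalization, -0.15 without EV 3 and -0.061 without HOTAIR 3, within -0.15 to 0.17 over the arrays left out. ARL3 was -0.069 without EV 4 and -0.091 without HOTAIR 3 (range -0.091 to 0.27), IQCB1 -0.12 without EV 4 (range -0.12 to 0.34), and PKD2 0.058 without EV 2 (range -0.38 to 0.058). The cause was not tested. Signal over background limits the dynein genes, of which 8 of 13 were detected on no array.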
